A study of Homo sapiens with 4 samples.

Results

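The replication-dependent histone genes were taken as the promoters whose gene symbol begins with HIST, a cluster digit and the letter H, in the older naming of these genes. They numbered 71 of the 20242 promoters in the files. By the histone they encode, 6 were genes of the linker histone H1, 17 of H2A, 18 of H2B, 15 of H3 and 15 of H4. By cluster, 55 belonged to HIST1 on chromosome 6, 12 to HIST2 on chromosome 1, 3 to HIST3 on chromosome 1, and HIST4H4 stood alone on chromosome 12.

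Trimethylation of histone H3 at lysine 27 (H3K27me3) and at lysine 4 (H3K4me3) was measured by chromatin immunoprecipitation sequencing (ChIP-seq) in JMJD3c-hESCs, which derive from SEES-3, an established human embryonic stem cell line. These cells carry piggyBac vectors from which doxycycline (Dox) induces JMJD3c, the catalytic domain of the H3K27 demethylase JMJD3 (KDM6B), and all groups shared this transgene, the transactivator that answers to Dox, selection with puromycin as stable clones, and culture in feeder-free StemFit AK-03 medium. Chromatin was taken on day 3 from cells without Dox (−Dox) or with Dox at 1 µg/ml (+Dox). There was 1 library for each mark in each condition, 4 libraries in all, so no difference here has a replicate check and no p-value is given. The comparison asks whether promoters of the histone genes themselves carried either mark, and whether the marks differed when the demethylase was induced.

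Each value is a signal, the coverage of ChIP-seq reads from 3 kb before to 3 kb after the transcription start, scaled to the reads of its library. All windows are of equal length, so levels can be compared between genes of a library. A promoter was called marked when its value exceeded 20, the threshold also used by the study. For H3K27me3 this was worth about 15.4 reads without Dox and 15.8 with Dox, and for H3K4me3 about 20.7 and 15.6. The 4 libraries held between about 168331 and 950185 reads in promoter windows. As a check of the labelled cell type, 10 of 10 promoters of stem cell genes such as SOX2 and NANOG were above 20 for H3K4me3 in both conditions, against 1 of 6 promoters of genes of other cells (COL1A2, a collagen gene). In a library from many cells, less of a mark in each cell and the mark in fewer cells cannot be told apart.

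Replication-dependent histone genes supply the histones that package new DNA, and they are transcribed mainly in S phase. They lie in clusters, lack introns and give mRNAs that end in a conserved stem-loop instead of a poly(A) tail, which SLBP binds. NPAT, a target of cyclin E and CDK2, gathers at the clusters and drives their transcription. H3K4me3 is found at active or poised promoters, whereas H3K27me3 is laid down by Polycomb and is typical of silent developmental genes in stem cells.

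The stem-loop is shown because it is the feature these genes share in their mRNAs and which the choice by symbol did not use. It was searched in the annotated transcripts on GRCh37, and 65 of 68 members found there held it in at least 1 transcript, against 68 of all 19807 protein-coding genes (0.343%). Among members the commonest form occurred in 40 genes, the next 2 in 9 genes each and the fourth in 4 genes. They are written 5′ to 3′ as DNA, with capitals for the whole motif.
stem-loop in 40 members: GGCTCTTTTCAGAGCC
stem-loop in 9 members: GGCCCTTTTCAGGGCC
stem-loop in 9 other members: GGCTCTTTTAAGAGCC
stem-loop in 4 members: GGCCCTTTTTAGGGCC
The 3 members without a match were HIST1H2BI, HIST1H3E and HIST1H4L, and another 3 (HIST1H2BF, HIST1H2BG and HIST1H4F) were not found in the transcripts.

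The promoters are shown next because most H2A and H2B genes are transcribed away from each other from a shared stretch of DNA. In the annotation on GRCh37, 10 pairs of members had divergent starts under 500 bases apart, and 10 of these 10 joined an H2A gene to an H2B gene at a distance of 215 to 293 bases. The sequences between the starts of 4 such pairs follow, from the plus strand of chromosome 6. Capitals mark the octamer (ATTTGCAT), the CCAAT box (CCAAT) and the TATA box (TATAAA) on either strand, and where boxes overlap the capitals run together.
HIST1H2AA-HIST1H2BA, chr6:25726791-25727004: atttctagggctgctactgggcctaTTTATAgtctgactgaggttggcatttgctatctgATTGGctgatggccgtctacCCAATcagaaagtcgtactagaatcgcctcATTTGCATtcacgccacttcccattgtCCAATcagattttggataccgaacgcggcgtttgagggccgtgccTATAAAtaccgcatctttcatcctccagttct
HIST1H2BC-HIST1H2AC, chr6:26124139-26124372: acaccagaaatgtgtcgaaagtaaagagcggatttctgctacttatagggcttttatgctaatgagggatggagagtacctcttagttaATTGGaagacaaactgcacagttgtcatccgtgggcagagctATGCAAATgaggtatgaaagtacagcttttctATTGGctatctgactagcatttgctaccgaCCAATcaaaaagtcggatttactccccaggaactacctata
HIST1H2AJ-HIST1H2BM, chr6:27782556-27782799: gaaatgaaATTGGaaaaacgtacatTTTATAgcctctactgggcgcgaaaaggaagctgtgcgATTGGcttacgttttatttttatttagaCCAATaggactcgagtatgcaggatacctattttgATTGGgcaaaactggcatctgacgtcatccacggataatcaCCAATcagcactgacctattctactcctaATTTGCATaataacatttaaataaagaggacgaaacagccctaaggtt
HIST1H2AM-HIST1H2BO, chr6:27860964-27861202: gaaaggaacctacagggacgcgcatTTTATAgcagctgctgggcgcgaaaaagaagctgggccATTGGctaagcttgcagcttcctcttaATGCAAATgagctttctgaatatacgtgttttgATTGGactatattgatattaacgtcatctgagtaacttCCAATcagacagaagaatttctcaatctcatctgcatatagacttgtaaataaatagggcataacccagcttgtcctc
They were chosen to span the range of H3K4me3. The signal without Dox was 0.855 at both HIST1H2AA and HIST1H2BA, genes known as testis-restricted histones, 138 and 140 at HIST1H2BC and HIST1H2AC, 34.8 and 32.8 at HIST1H2AJ and HIST1H2BM, and 171 and 166 at HIST1H2AM and HIST1H2BO. Each of the 4 stretches held 1 octamer and 3 or more CCAAT boxes, and the stretch of lowest signal also held 2 TATA boxes. These letters were therefore present at the pair almost without H3K4me3 as well as at the pair with the highest values. Not every pair held an octamer. Of the pairs not shown, 0 octamers were found in HIST3H2A-HIST3H2BB (signals of 95.5 and 98.3), HIST1H2BL-HIST1H2AI (72.1 and 74.1) and HIST1H2AK-HIST1H2BN (115 and 116). There was 1 octamer in each of HIST2H2BE-HIST2H2AC, HIST1H2BJ-HIST1H2AG and HIST1H2BK-HIST1H2AH.

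Over all histone genes, promoter motifs followed the histone type. The RefSeq table of promoters, on GRCh38.p14 and running from 250 bases before to 50 bases after each start, held 66 of the 71 members among 27305 promoters. The octamer, the site of POU-domain factors such as OCT1 (POU2F1), was present in 26 of 66 members (39.4%) against 1.8% of all promoters, in 14 of 18 H2B, 11 of 16 H2A, 1 of 13 H3 and 0 of 13 H4 and 0 of 6 H1 promoters. CCAAT occurred in 56 of 66 members (84.8%) against 35.7% of all, namely in every one of the H1, H2A, H2B and H3 promoters matched but in 3 of 13 of H4. TATAAA was found in 44 members (66.7%) against 12% of all. The H1 box (AAACACA) was present in 6 of 6 H1 promoters, in 9 members in all (13.6%), and in 5.76% of all promoters. By presence of the octamer, the H3K4me3 signal without Dox was compared within types. In H2B genes it had a median of 95.03 (0.855 to 166) in the 14 with the octamer and 97.5 (72.1 to 116) in the 4 without the octamer. In H2A genes the median was 97.5 (0.855 to 171) in the 11 with the octamer and 74.1 (36.8 to 115) in the 5 without the octamer. Over all types it was 97.5 in the 26 members with the octamer, nearly all of them H2A and H2B genes, and 47.7 in the 40 without it.

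Most histone promoters were marked by H3K4me3 and none by H3K27me3. Without Dox, 62 of 71 members (87.3%) were above 20 for H3K4me3, against 63.7% of all promoters, and with Dox again 62 members (87.3%), against 62.7% of all. Of these, 61 were above 20 in both conditions. The median H3K4me3 signal of the members was 66.1 without Dox and 71.2 with Dox, and that of all promoters was 41.3 and 38.8. The 62 members marked without Dox had medians of 75.1 and 75.7, beside 66.4 and 64.9 at the 10980 promoters of the whole series marked by H3K4me3 alone. At the upper end, 18 members (25.4%) exceeded 100 without Dox, against 9.64% of all promoters.

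For H3K27me3, 0 of 71 members were above 20 in either condition, against 11% of all promoters without Dox and 6.73% with Dox. The highest value of a member in either library was 13.3. The median of the members was 4.18 without Dox and 4.47 with Dox, compared with 6.09 and 5.97 for all promoters, and 52 of the 71 members without Dox and 51 with Dox lay below the median of all promoters. Without Dox, 62 members were thus marked by H3K4me3 alone and 9 were unmarked, and none carried both marks or H3K27me3 alone. The 9 include HIST2H4A and HIST2H4B, at 0 for both marks, whose windows have further exact copies on the chromosome. Whether reads could be placed there was not tested.

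**Figure D1:**
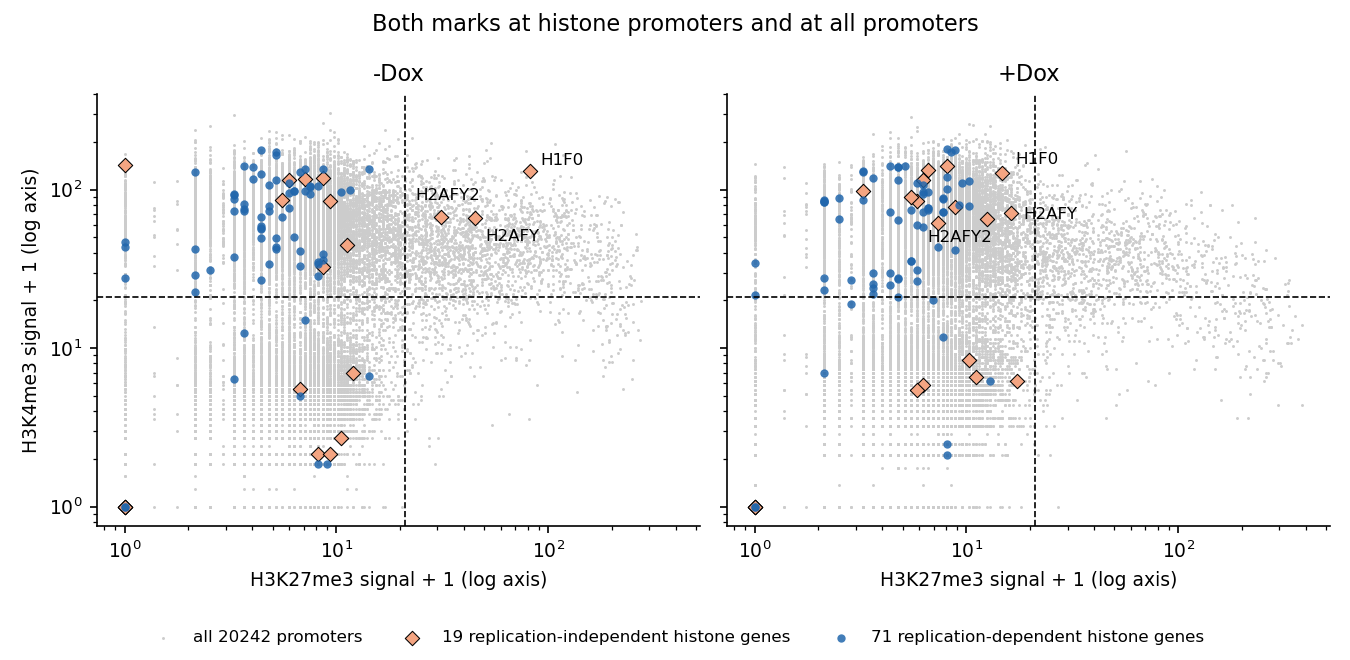
H3K27me3 signal (x axis, signal + 1, log axis) and H3K4me3 signal (y axis, signal + 1, log axis) at all 20242 promoters (grey), 71 replication-dependent histone genes (blue circles) and 19 replication-independent histone genes (orange diamonds), without Dox on the left and with Dox on the right; dashed lines stand at a signal of 20. All blue points lie left of the vertical line in both panels, whereas H1F0, H2AFY and H2AFY2 lie right of it without Dox and left of it with Dox.

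Levels of H3K4me3 differed between histone types, and every type ranged widely. Without Dox the median was 97.0 at H2B genes, 91.8 at H2A, 56.4 at H3, 44.6 at H1 and 40.2 at H4, and with Dox it was 86.7, 83.9, 57.4, 49.6 and 34.3 in the same order. The ranges of neighbouring types in this order overlapped, and H2A and H2B genes shared their windows in 10 pairs. Above 20 without Dox were 17 of 18 H2B, 16 of 17 H2A, 13 of 15 H3, 5 of 6 H1 and 11 of 15 H4 genes. The H4 values include HIST2H4A and HIST2H4B, which were at 0 and lie in repeated sequence.

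**Figure D2:**
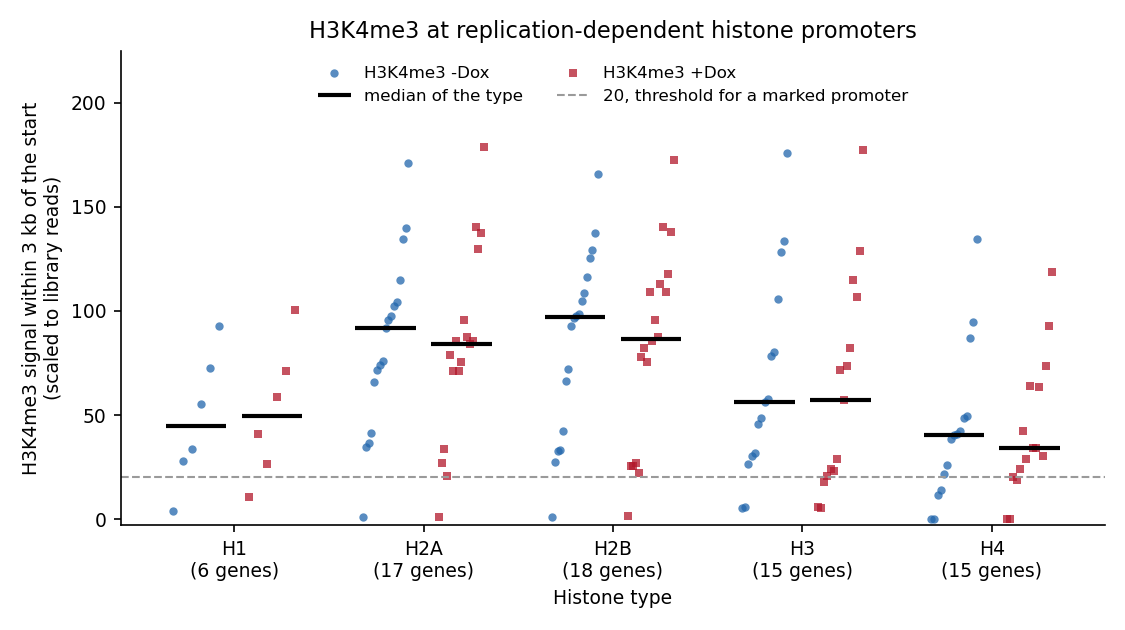
H3K4me3 signal within 3 kb of the start (y axis, scaled to library reads) for each of the 71 genes by histone type (x axis), without Dox (blue circles) and with Dox (red squares). Black bars are medians of the type and the dashed line stands at 20; the H2A and H2B medians lie above 80 in both conditions and the H4 medians at 40.2 and 34.3.

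The H1 genes encode linker histones, which bind DNA as it enters and leaves the nucleosome. HIST1H1E had an H3K4me3 signal of 92.6 without Dox and 100.3 with Dox, the highest of the type. Its window shares 69.7% of its bases with that of HIST1H2BD, which had 96.6 and 109. HIST1H1B had 72.4 and 71.2, and HIST1H1C 55.3 and 58.5. The window of HIST1H1B shares 62% with that of HIST1H2AL, which had 71.8 and 71.2. Values at HIST1H1E and HIST1H1B may thus include reads from the neighbouring core histone promoter. HIST1H1A had 33.9 and 26.5, and HIST1H1D 27.9 and 40.6. HIST1H1T, which encodes the linker histone of spermatocytes, had 3.99 and 10.8. Thus 5 of 6 H1 promoters were marked in both conditions, and the testis gene was the one that was not.

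The 150 bases upstream of HIST1H1T and HIST1H1E are shown because these genes of the same cluster lay at the ends of the H1 range. The signal at HIST1H1E cannot be credited to this stretch alone, as its window is largely shared with HIST1H2BD. Sequences are from GRCh37, each read on the strand of its gene towards the start, and capitals mark the boxes named above and the H1 box (AAACACA) on either strand.
HIST1H1T, chr6:26108364-26108513, minus strand: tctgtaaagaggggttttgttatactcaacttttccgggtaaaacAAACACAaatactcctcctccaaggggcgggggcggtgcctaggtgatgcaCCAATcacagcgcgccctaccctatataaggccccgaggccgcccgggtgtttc
HIST1H1E, chr6:26156407-26156556, plus strand: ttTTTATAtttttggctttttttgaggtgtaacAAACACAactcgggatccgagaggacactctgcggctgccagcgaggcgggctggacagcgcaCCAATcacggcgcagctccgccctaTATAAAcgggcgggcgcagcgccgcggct
Both stretches held 1 H1 box and 1 CCAAT box. The exact letters TATAAA, on either strand, were found 2 times in HIST1H1E and 0 times in HIST1H1T. Of the 2 in HIST1H1E, 1 lay on the opposite strand. Near matches, such as tatataag in the HIST1H1T stretch, were not counted, so these counts do not show that HIST1H1T lacks a TATA box.

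Among core histones, the highest H3K4me3 signals without Dox were found at HIST1H3J (176), HIST1H2AM (171) and HIST1H2BO (166), all at the far end of HIST1. With Dox the same promoters had 177, 179 and 173. The 3 values are in effect 1 measurement. The start of the HIST1H3J transcript in the files lay 79 bases from that of HIST1H2AM and 2280 bases from the annotated start of its own gene, so its window was that of the HIST1H2AM and HIST1H2BO promoter. The next H3 gene was HIST1H3D, with 133 without Dox and 129 with Dox, and its window overlapped that of HIST1H2AD (135 and 130). HIST4H4 was the highest of the H4 genes, with 135 and 119.

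There were 9 members at or under 20 for H3K4me3 without Dox. HIST1H2AA and HIST1H2BA, an H2A and an H2B gene, had 0.855 each, about 1 read, and 1.12 and 1.49 with Dox. HIST3H3, an H3 gene known from testis, had 5.70 and 5.22, and HIST2H3PS2 had 5.41 and 5.97. HIST1H4G had 11.4 and 20.1, and HIST1H4C had 14.0 and 19.0. HIST1H1T is given above, and HIST2H4A and HIST2H4B were listed at 0 in all 4 libraries. Of the 9, HIST1H4G was the one above 20 with Dox, and the reverse held for HIST2H3C, which had 26.5 without Dox and 17.9 with Dox.

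The 4 members known as testis histones, HIST1H2AA, HIST1H2BA, HIST1H1T and HIST3H3, were grouped after their values had been seen, so the group is a description. Their H3K4me3 signal ranged from 0.855 to 5.70 without Dox and from 1.12 to 10.8 with Dox. Their H3K27me3 signal without Dox was 7.99 at HIST1H2AA, 7.23 at HIST1H2BA, 5.70 at HIST1H1T and 13.3 at HIST3H3, and with Dox it was 7.08, 7.08, 6.71 and 11.9. None of them therefore passed 20 for either mark in either condition. Without these genes, 62 of 67 members would be marked by H3K4me3 alone.

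Without Dox, the HIST3 and HIST4 genes had the highest H3K27me3 of the family while staying under 20. With Dox this held for HIST3H3 alone, as HIST1H2BG and HIST1H2BH (9.32 each) exceeded the other HIST3 genes and HIST4H4. HIST3H3 had 13.3 without Dox and 11.9 with Dox, HIST3H2BB 10.6 and 5.22, HIST3H2A 9.51 and 5.59, and HIST4H4 13.3 and 7.08. For HIST3H3 the ratio of +Dox to −Dox was 0.896 and for HIST4H4 0.532, and the interval of both ratios included 1. In H3K4me3 HIST3H2A had 95.5 without Dox and 95.4 with Dox and HIST3H2BB, its divergent partner, 98.3 and 95.8, whereas HIST3H3 in the same cluster was unmarked.

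Because the genes are clustered, not all of these values are separate measurements. On GRCh37, 68 of 71 members could be placed, 39 by the transcript in the files and 29 by gene name. Within HIST1, gaps of more than 200 kb split the genes into 4 blocks. The first held HIST1H2AA and HIST1H2BA alone, the second 29 genes over 268 kb from HIST1H1A to HIST1H4H, the third 5 genes over 14.4 kb and the fourth 16 genes over 85.5 kb. Overlapping windows merged the 68 members into 34 regions, of which 21 held 2 or more members and the largest held 6. A set of 39 members with windows that share no base could be kept. It counts HIST1H4J and HIST1H4K, placed 7468 bases apart, as separate. Their values were nearly the same in every library, with H3K4me3 of 41.03 and 42.2 without Dox, 34.3 at both with Dox, and H3K27me3 of 4.18 at both without Dox and 4.47 at both with Dox. HIST1H4K was placed by gene name, so its start in the files may differ.

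Neighbours that shared most of their windows mostly had like values. In the 11 pairs with starts under 500 bases apart, which shared at least 95.1% of their windows, the median absolute log2 difference in H3K4me3 without Dox was 0.03 and the largest 0.09. In the 15 pairs 979 to 2664 bases apart the median was 0.05 and the largest 0.73. In the 8 pairs 3639 to 5603 bases apart it was 1.05, and in the 26 pairs at 6000 bases or more in which both genes had a value above 0 it was 1.12. Pairs at close range share most of their reads, so their likeness is not a finding, whereas neighbours a few kilobases apart within a block often differed by more than 2-fold. HIST1H4C, at 14.0, lay 4202 bases from HIST1H1T at 3.99, and HIST1H4G, at 11.4, lay 3639 bases from HIST1H3F at 106.

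**Figure D3:**
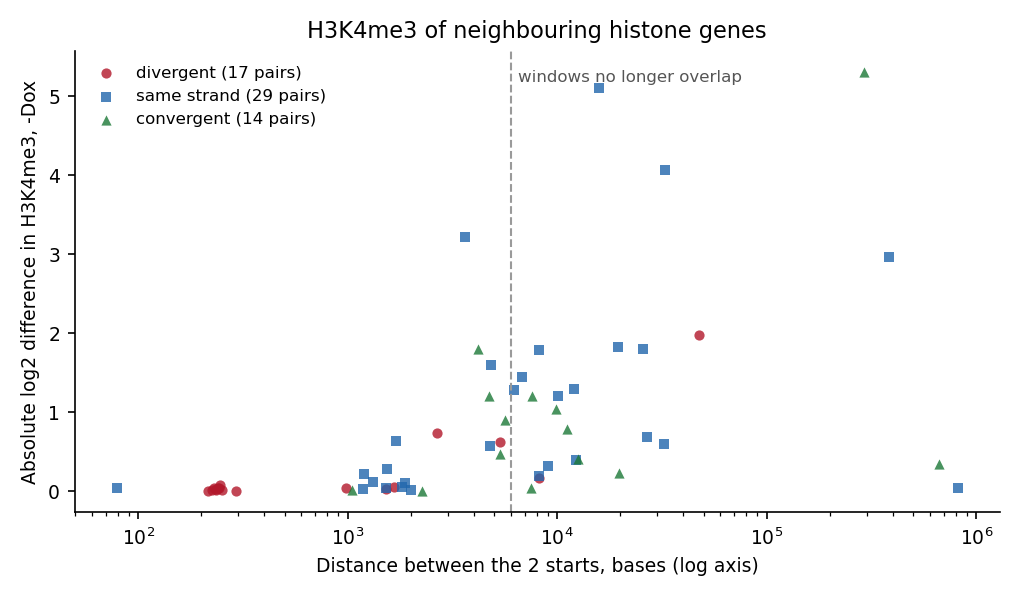
Absolute log2 difference in H3K4me3 without Dox (y axis) between neighbouring members against the distance between their starts in bases (x axis, log axis), for divergent (red circles), same-strand (blue squares) and convergent (green triangles) pairs in which both values exceed 0. Left of 500 bases no pair differs by more than 0.09; beyond the dashed line, where windows no longer overlap, the median is 1.12.

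Non-histone promoters within the span of HIST1 had lower H3K4me3 than the histone genes. The 19 non-histone promoters that start between the first and the last HIST1 member share no base with a member's window. They had a median H3K4me3 signal of 24.2 without Dox and 22.7 with Dox, compared with 72.1 and 73.5 at the 55 HIST1 genes. Without Dox 11 of the 19 (57.9%) were above 20, near the 63.7% of all promoters. For H3K27me3, 3 of the 19 (15.8%) were above 20 without Dox, against 11% of all promoters. Among them were POM121L2 with 60.9 without Dox and 39.9 with Dox and BTN1A1 with 56.3 and 34.3. The third, TRIM38, had 21.3 and 6.34.

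On induction of JMJD3c the H3K4me3 signal of the histone genes differed little in sum. The median log2 ratio of +Dox to −Dox over 69 members with a value above 0 was −0.04 (95% interval of the median −0.15 to 0.03), beside −0.03 for all promoters. Summed over the 39 windows that share no base, the ratio was 0.971 (0.913 to 1.03), beside 0.975 over all promoters. By fold, 0 of 69 members had a ratio below 0.5, against 5.33% of all promoters, and 1 of 69 had a ratio above 2, against 6.09%. Such ratios were also rare at the 10980 promoters marked by H3K4me3 alone, of which 50 were below 0.5 and 4 above 2. The 1 member above 2 was HIST1H1T, with a ratio of 2.71 (0.710 to 12.0) resting on few reads. Intervals of single ratios are exact Clopper-Pearson intervals of approximate reads. They cover counting error only and compare libraries, not conditions.

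By these intervals, 4 of 69 members (5.8%) had an H3K4me3 ratio below 1, against 2.92% of all promoters, and 1 of 69 (1.45%) had a ratio above 1, against 1.65% of all. Among promoters above 20 without Dox, 4 of 62 members (6.45%) were below 1, against 4.15% of all such promoters. Above 1 the shares were 1.61% and 1.66%. The 4 were HIST2H3D, with 45.9 without Dox and 23.1 with Dox and a ratio of 0.504 (0.278 to 0.891), HIST2H2AA3, with 41.3 and 20.9 and a ratio of 0.505 (0.259 to 0.894), HIST2H2BF, with 42.2 and 22.4 and a ratio of 0.530 (0.274 to 0.915), and HIST1H3I, with 48.4 and 28.7 and a ratio of 0.593 (0.336 to 0.981). HIST2H3D and HIST2H2BF share 78% of their windows and so do not count as separate cases. The 1 above was HIST1H4I, with 40.2 and 64.1 and a ratio of 1.60 (1.03 to 2.44). HIST1H4G, with a ratio of 1.77 (0.785 to 4.09), and HIST1H4B, with 1.64 (0.945 to 2.80), had larger ratios whose intervals included 1. When both libraries were scaled to the same total, HIST1H3I was no longer below 1, and when they were scaled on promoters of low signal, HIST1H4I was no longer above 1 and HIST1H4L joined those below 1, giving 5 of 69 (7.25%) against 4.99% of all promoters.

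**Figure D4:**
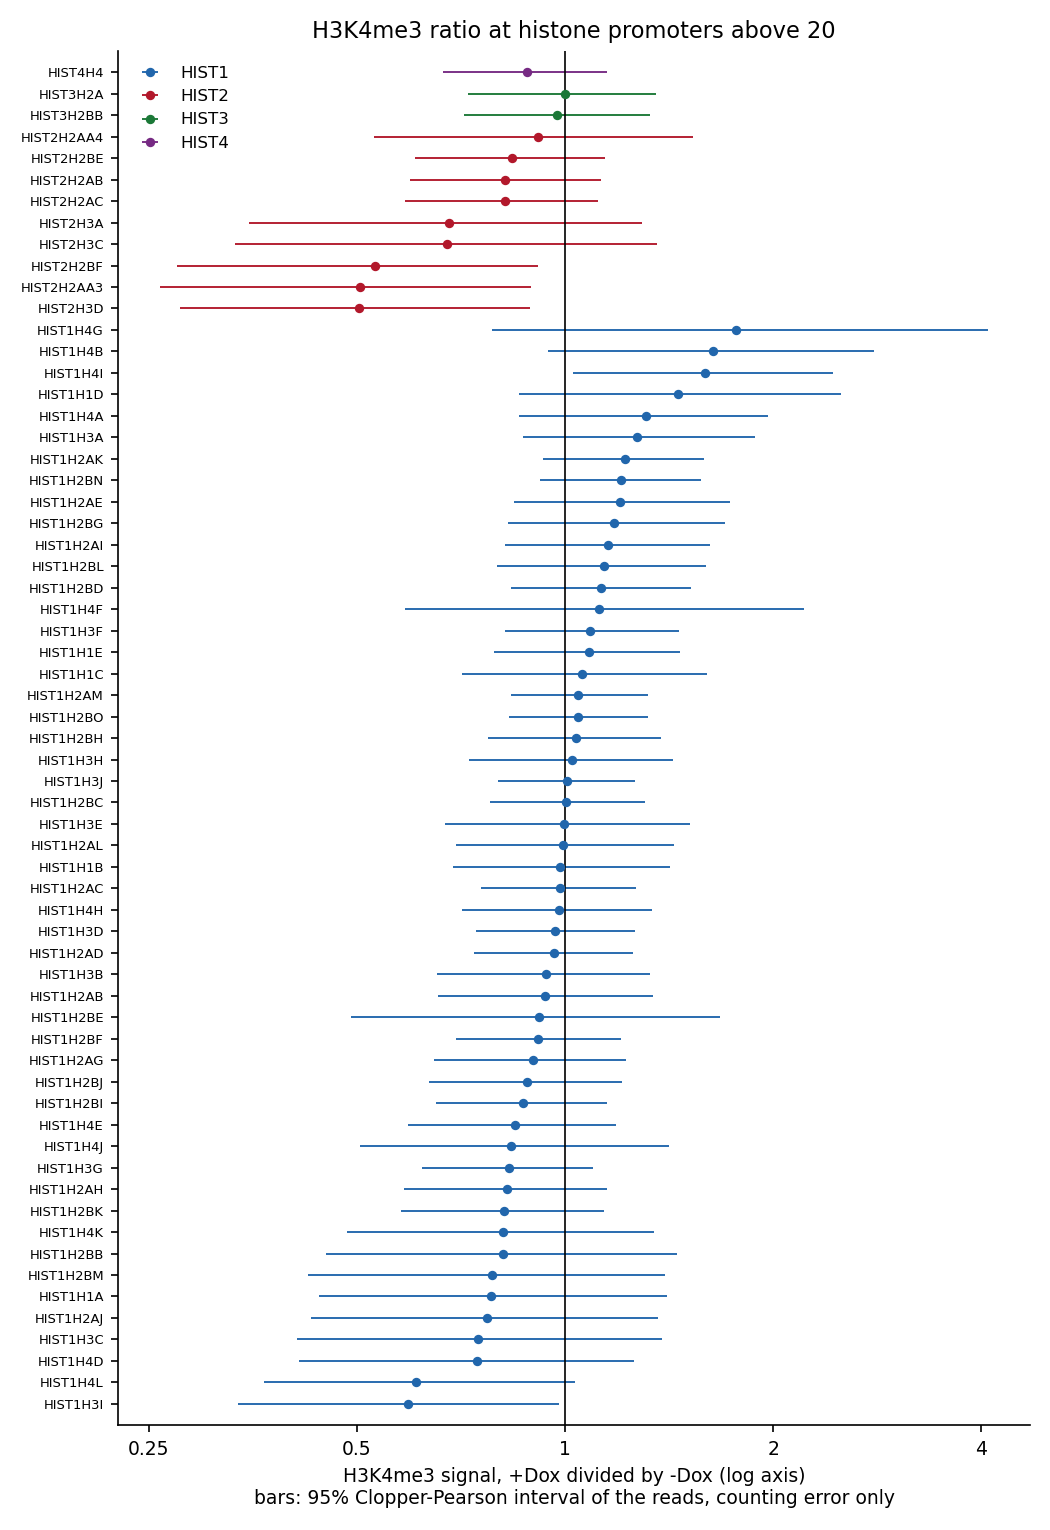
Ratio of H3K4me3 signal with Dox to that without Dox (x axis, log axis) at each member above 20 in either condition (y axis), coloured by cluster, with bars for the 95% Clopper-Pearson interval of the approximate reads. The 9 HIST2 genes plotted all lie left of 1, and 3 of them have intervals below 1, but each shares part of its window with another of them. Most HIST1 intervals include 1.

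Of the 4 members with an interval below 1, 3 lay in HIST2. Of the 10 HIST2 genes with a value, 9 had a lower H3K4me3 signal with Dox. The median log2 ratio of the 10 was −0.42 (−0.98 to −0.13). Each of the 9 shares part of its window with another of them, so they are not separate measurements, and the interval does not allow for this. The 7 HIST2 windows that share no base, of which HIST2H4A and HIST2H4B are at 0, summed to 215 without Dox and 167 with Dox, a ratio of 0.777 (0.618 to 0.964). It was 0.797 (0.633 to 0.988) with equal totals and 0.734 (0.583 to 0.910) when scaled on promoters of low signal. The same ratio was 1.00 (0.921 to 1.10) in the second HIST1 block, 0.980 (0.799 to 1.19) in the third, 0.990 (0.875 to 1.12) in the fourth and 0.995 (0.725 to 1.33) in HIST3. The HIST2 sum includes HIST2H2BF, 1 of the 3 members just named by their intervals, so it is not a separate observation. It also includes HIST2H3C and HIST2H2AA4, whose windows hold much repeated sequence, as described next. The difference between HIST2 and the other clusters was not itself tested, and with 1 library in each group it has no replicate check.

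HIST2 also stood apart in its sequence. Within a chromosome, 150-base stretches of a member's window (the length of the reads in the study) were searched for a further exact copy on either strand. The share found again was at most 4.38% in HIST1 windows and 0.513% in HIST3, whereas the median of HIST2 was 47.6%. It was 100% at HIST2H4A and HIST2H4B, both listed at 0 in all libraries, as were 373 promoters of the whole series. It was 88.1% at HIST2H3A and 88.0% at HIST2H3C, where the H3K4me3 signal was 30.2 without and 20.5 with Dox, and 26.5 and 17.9. It was 61.7% at HIST2H2AA4, with 36.8 and 33.6, and 59.0% at HIST2H2AA3. The share was 19.9% at HIST2H2BF and 15.7% at HIST2H3D, with 42.2 and 45.9 without Dox, and these genes had some of the lowest ratios. At HIST2H3PS2, with the low values given above, it was 36.2%. Apart from HIST2H3PS2, the signal without Dox was broadly lower where the share was higher. At HIST2H2BE, HIST2H2AC and HIST2H2AB, where it was 0%, the H3K4me3 signal was the highest of the cluster, with 105, 103 and 104 without Dox and 87.6, 83.9 and 85.4 with Dox. The ratio at HIST2H2BE was 0.838 (0.607 to 1.14). How the mapping treated reads with several equal places is not given in the sources used here, and its part in the HIST2 levels was not tested.

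**Figure D5:**
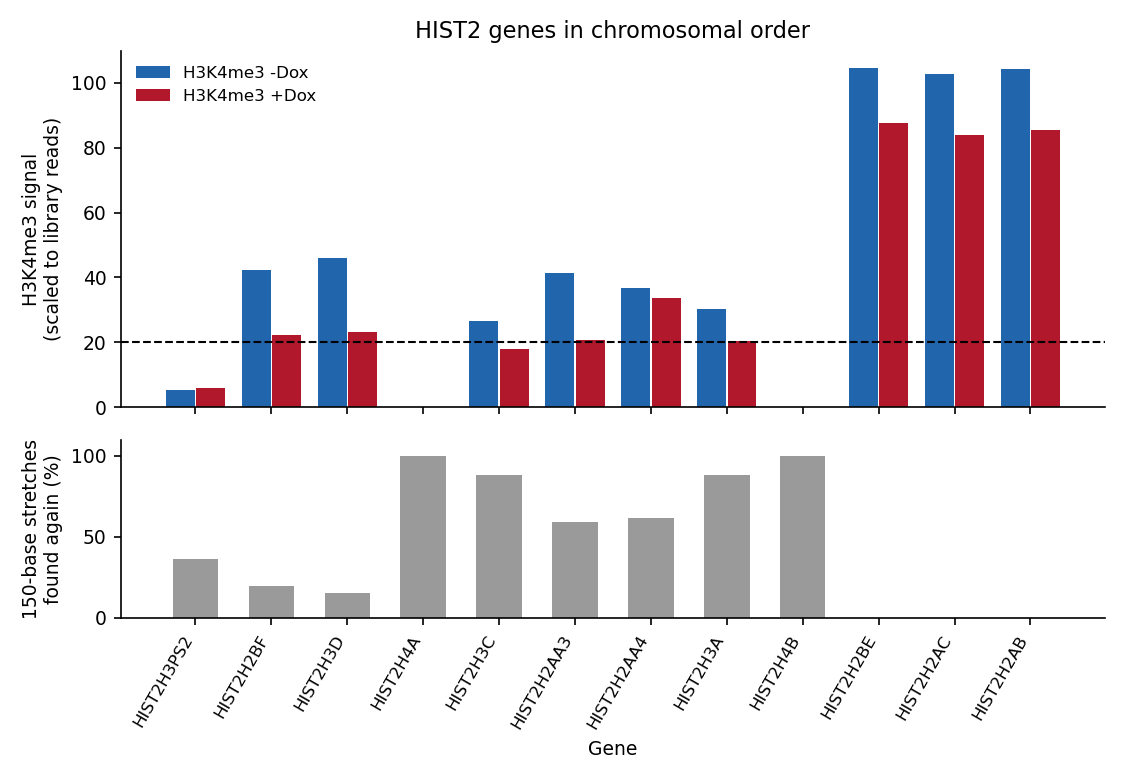
Top, H3K4me3 signal (y axis, scaled to library reads) at the 12 HIST2 genes in chromosomal order (x axis) without Dox (blue) and with Dox (red), with the dashed line at 20. Bottom, the percentage of 150-base stretches of each window with a further exact copy on the chromosome; the genes at 100% have no signal and the 3 at 0% have the highest.

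Ratios of H3K27me3 rest on the low values of the histone genes. Over 66 members with a value above 0 without Dox the median log2 ratio was 0.09 (−0.16 to 0.29), beside −0.15 over all promoters. A ratio below 0.5 was found at 17 of 66 members, against 21.5% of all promoters, and a ratio above 2 at 9 of 66, against 14.7% of all. With both libraries scaled to the same total these counts were 13 and 15, so which direction was the more frequent depended on the scaling. The shares of all promoters under this scaling are not given here, so the shift is not a result about the members. By interval, 0 members were below 1, against 6.8% of all promoters, and 0 were above 1, against 1.43%. Members held few reads of this mark, which leaves such intervals wide. Of the promoters marked by H3K4me3 alone, 10812 had a ratio, and only 185 of these were below 1 and 140 above 1. The counts of 0 therefore do not set the members apart from promoters of like signal. Summed over the 39 windows that share no base the ratio was 0.987 (0.755 to 1.23), beside 0.850 over all promoters and 0.978 over the 10980 promoters marked by H3K4me3 alone. A change within this interval was not detectable at this depth.

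Some histone genes outside the clusters were marked by H3K27me3. Of 20 genes listed as replication-independent histone genes, which are expressed throughout the cell cycle or in particular tissues, 19 were in the files, and 3 of them (15.8%) were above 20 for H3K27me3 without Dox, against 11% of all promoters, and 0 with Dox, against 6.73%. H1F0, the linker histone of resting and differentiated cells, had 80.6 without Dox and 13.8 with Dox, a ratio of 0.171 (0.0825 to 0.333). H2AFY, which encodes macroH2A, had 44.1 and 15.3, a ratio of 0.346 (0.163 to 0.684), and its relative H2AFY2 had 30.0 and 4.85, a ratio of 0.161 (0.0428 to 0.498). The 3 genes were picked by their value without Dox, which also enters the ratio, so this choice favours ratios below 1. Their H3K4me3 was 129 and 127 at H1F0, 65.3 and 70.1 at H2AFY and 66.1 and 84.3 at H2AFY2, above 20 in both conditions. These genes carried both marks without Dox, which no member of the clusters did. CENPA, the H3 variant of centromeres, had 31.3 of H3K4me3 without Dox and 64.5 with Dox, a ratio of 2.06 (1.30 to 3.34). Of the 16 listed genes with an H3K4me3 ratio, it was the 1 with an interval above 1, against 1.65% of all promoters, and 0 lay below 1, against 2.92%.

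Genes for the factors that transcribe or process histone mRNAs resembled the histone genes in their marks. Of 20 listed, 19 were in the files. Without Dox, 0 of the 19 were above 20 for H3K27me3, against 11% of all promoters, a share at which few would be expected among so few genes. For H3K4me3, 18 (94.7%) were above 20 without Dox, against 63.7% of all promoters. NPAT had an H3K4me3 signal of 88.9 without Dox and 102 with Dox, and SLBP 105 and 85.8, with intervals of the ratio that included 1. By interval, 2 of the 19 had an H3K4me3 ratio below 1, against 2.92% of all promoters, and 1 above 1, against 1.65%. These 3 are named for that reason, and their intervals cover counting error only. YY1, a zinc finger factor, had 162 without Dox and 105 with Dox, a ratio of 0.650 (0.494 to 0.853), and SYMPK, the scaffold of the cleavage complex, had 131 and 96.9, a ratio of 0.738 (0.552 to 0.988). CRAMP1L had 112 and 148, a ratio of 1.33 (1.01 to 1.73). The exception to the mark was ERI1, the exonuclease that trims the stem-loop, with 4.84 and 4.85.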

How the data were processed

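Per the labels and the study's methods, the authors sequenced 4 ChIP-seq libraries as single-end 150-base reads on a MiSeq, mapped them to hg19 with Bowtie2, discarded mitochondrial reads and computed coverage with ngs.plot. The submitters' processing notes also name CASAVA 1.4. The deposited values are signal, scaled by the authors to library reads and summed over 3 kb on each side of 1 start per gene. Whether their scaling to the density downstream of transcription ends was applied is not given in the sources used here. No input library was used here.

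From these values, ratios of +Dox to −Dox were taken without a pseudocount, leaving out promoters at 0 without Dox. Every value was a whole multiple of a step (0.285 to 0.380), and 1 read was worth 0.967 to 1.30 of signal. The approximate reads gave 95% Clopper-Pearson intervals of ratios, which cover counting error only, as PCR copies of a molecule could not be told from separate molecules. Medians carry order-statistic intervals, which treat genes as separate although many members share windows. The interval code was tested on simulated data. Positions and sequences came from GRCh37 with GENCODE 44, and promoter motifs from RefSeq on GRCh38.p14. The members and all lists were chosen with earlier results of these data known. Named genes were the highest and lowest of each type for H3K4me3 −Dox, all H1, HIST3 and HIST4 genes, the 3 lowest and highest ratios of H3K4me3 above 20, members listed with identical values, and genes of the lists. Alternatives were other scalings, a threshold of 10, a pseudocount of 5, a mean of at least 10, and subsets of members. Analyses used Python 3.11.15, pandas 2.3.3 and SciPy 1.17.1.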

Additional observations from a re-analysis of the deposited data

How the results depend on the processing

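Of 86 values recomputed for 10 results, 76 stayed within the interval of the value reported, 9 moved and 1 changed sign. Some of the 76 could not move, because the scalings left the libraries without Dox unchanged. The intervals also treat members as separate although many windows overlap, so the tally is not a measure of robustness. The share of members with an H3K4me3 ratio above 2 was 1.45%, and became 0% with non-overlapping windows, with a pseudocount of 5, with a mean signal of at least 10, and without the testis-restricted members, an alternative chosen after seeing the data. The median log2 ratio of H3K27me3 was 0.09, rose to 0.32 when both libraries were scaled to the same total and was −0.53 over the 2 members with a mean of at least 10. Over these 2 members the shares with an H3K27me3 ratio below 0.5 and above 2 were both 0%. With a pseudocount of 5 both shares were 1.41%, compared with 25.8% and 13.6%. The cause of the moves under equal totals and the pseudocount was not tested, and the mean of at least 10 left 2 members. The shares of members above 20 stayed within their intervals under those tried, a threshold of 10 included. No paired analysis was possible because there was 1 library for each mark and condition, which also left no replicate to drop. Depth limits single ratios, as a signal of 20 was worth 15.4 to 20.7 reads. Members placed by gene name may have started elsewhere in the files.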
